A study of Arabidopsis thaliana with 20 samples.

Results

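The 40 genes described here are nuclear genes of *Arabidopsis thaliana* that encode the light-harvesting proteins and subunits of the photosystems. Earlier results of these data were known, but the 40 genes were not chosen by their values. They were chosen by name and locus identifier, from the LHCA, LHCB, PSA and PSB families among the 33557 genes of the deposited table. They comprise 4 antenna genes of photosystem I, 9 genes of the major antenna of photosystem II (LHCII), 6 genes of the minor antenna and of PSBS, 12 genes of photosystem I subunits, 5 genes of oxygen-evolving proteins and 4 genes of small subunits of photosystem II. Some genes of these families, LHCA5, LHCB7 and PSB27 among them, are not included and are counted below as further photosystem and antenna genes.

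Seeds of the WT (Col-0) and of the *Δdella* mutant were kept for 20 hr on plain germination medium (MS), on 5 µM paclobutrazol (PAC), on PAC with 10 µM gibberellin (PAC + GA), on 0.7 mg/ml of *Pseudomonas aeruginosa* extract (*PAO1* extract), or on *PAO1* extract with 10 µM GA. The *Δdella* mutant, also in Col-0, carries mutations in all 5 DELLA genes (the alleles *gai-t6*, *rga-28*, *rgl1-SK62*, *rgl2-SK54* and *rgl3-3*), which encode repressors of GA responses. PAC blocks GA synthesis, and the extract holds the germination repressive activity that the bacteria release. The 10 groups had 2 biological replicates each, whose RNA-seq reads (whole seeds, single-end, 50 bases) were pooled by the authors, so that each gene has 1 value per group. Levels are FPKM (fragments scaled to transcript length and to library size), which allows levels of different genes to be compared per length. No spread between replicates can be given and no test was possible: every difference below compares 2 pooled values, and how far it exceeds the replicate error is unknown.

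The photosystems are pigment-protein complexes of the thylakoid membrane that turn light into electron flow. Their reaction-centre proteins are encoded in the chloroplast, whereas the antenna proteins, which bind chlorophyll and pass on the absorbed energy, and most of the smaller subunits are encoded in the nucleus. In seedlings the nuclear genes are induced by light and by developing chloroplasts, and their transcripts become some of the most abundant of green tissue.

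Several members are near-identical copies, which bears on how their reads can be assigned. LHCB1.1 (AT1G29920), LHCB1.2 (AT1G29910) and LHCB1.3 (AT1G29930) lie within one stretch of chromosome 1, each with 1 exon. The encoded proteins of LHCB1.1 and LHCB1.2 are 100% identical, and that of LHCB1.3 is 99.6% identical to both. The first 120 coding bases of each are shown to make this visible, at chr1:10475773-10475892 (minus strand), chr1:10473127-10473246 (minus strand) and chr1:10478071-10478190 (plus strand) of TAIR10.1, from RefSeq. Capitals mark the positions at which the 3 copies are not all alike, 9 in this stretch and 47 of all 804 coding bases.
LHCB1.1: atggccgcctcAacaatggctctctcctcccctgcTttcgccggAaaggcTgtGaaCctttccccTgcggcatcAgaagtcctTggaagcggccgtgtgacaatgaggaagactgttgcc
LHCB1.2: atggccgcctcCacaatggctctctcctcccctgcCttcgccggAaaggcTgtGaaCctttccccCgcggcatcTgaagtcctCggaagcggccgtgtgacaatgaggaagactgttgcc
LHCB1.3: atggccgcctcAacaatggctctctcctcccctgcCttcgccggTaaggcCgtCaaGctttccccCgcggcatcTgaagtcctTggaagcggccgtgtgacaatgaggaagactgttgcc
Of the 40 members, 32 had no window of 50 exonic bases, the length of a read, that occurs elsewhere in the genome. The other 8 were LHCA2, the 5 LHCB1 genes, LHCB2.1 and LHCB2.2, in which between 70.5% (LHCB2.2) and 89.4% (LHCB1.2) of the windows occur once. The levels of these 8 are uncertain to that extent, since the sources used here do not say how reads with several matches were shared out.

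Windows of 300 bases before the annotated transcript start were searched on both strands for 3 motifs known from promoters of light-regulated genes. The G-box (CACGTG) was found in 8 of 40 members and in 7.22% of the 27439 protein-coding genes with such a window. The I-box core (GATAAG) was found in 10 members and in 14.7% of all windows, and CCAATC in 12 members and in 12.2% of all windows. These are matches of letters, not sites of binding, and no test was made of the shares. Some windows of members overlap another annotated gene. Those of LHCA3, LHCB2.3, PSBS and PSAL overlap their own gene, since the start is that of 1 chosen transcript. Windows of 150 bases are shown for the PSBQ pair, the copies whose levels stand furthest apart of those compared below, and for LHCA4, the antenna gene of photosystem I with the highest level. They lie at chr4:11334202-11334351 (plus strand), chr4:2673244-2673393 (minus strand) and chr3:17495034-17495183 (minus strand) of TAIR10.1, end at the base before the start, and have the 3 motifs in capitals.
PSBQ1: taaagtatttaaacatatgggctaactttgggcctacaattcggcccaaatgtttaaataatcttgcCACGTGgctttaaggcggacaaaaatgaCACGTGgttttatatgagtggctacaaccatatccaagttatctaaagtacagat
PSBQ2: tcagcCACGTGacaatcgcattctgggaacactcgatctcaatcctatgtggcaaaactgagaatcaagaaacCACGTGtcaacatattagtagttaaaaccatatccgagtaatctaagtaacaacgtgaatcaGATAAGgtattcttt
LHCA4: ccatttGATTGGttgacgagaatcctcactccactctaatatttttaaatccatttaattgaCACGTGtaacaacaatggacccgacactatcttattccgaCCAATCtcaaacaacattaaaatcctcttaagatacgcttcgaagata
PSBQ1 has 2 G-boxes, which begin 83 and 55 bases before the start. PSBQ2 also has 2, at 145 and 77 bases, and an I-box core at 15 bases. LHCA4 has 1 G-box, at 88 bases, and CCAATC in either orientation at 144 and 48 bases.

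At 20 hr on MS the levels of the members in WT seeds differed widely between roles. Subunits of photosystem II held the first 4 places among the members, and PSBX ranked 516 among all genes. PSBX (AT2G06520), a small subunit, had 281 FPKM, and its 10 values lay between 227 and 311. PSBP1 (AT1G06680), an oxygen-evolving protein, had 147 FPKM, PSBR (AT1G79040) 129 FPKM, PSBQ1 (AT4G21280) 95 FPKM. The minor antenna gene LHCB4.1 followed with 80.3 FPKM, and then PSBY (AT1G67740), a small subunit, with 76.5 FPKM. Neighbours in this order cannot be told apart, as no replicate values were used.

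The antenna genes were uneven. In photosystem I, LHCA4 (AT3G47470) stood at 36.1 FPKM, and LHCA1, LHCA2 and LHCA3 at 3.54, 5.19 and 6.26 FPKM. Among the minor antenna genes, which link the major antenna to the core of photosystem II, LHCB4.1 (AT5G01530) had 80.3 FPKM, LHCB4.3 (AT2G40100) 18.4 FPKM, LHCB4.2 11.9 FPKM, LHCB5 7.63 FPKM and LHCB6 (AT1G15820) 3.79 FPKM. PSBS (AT1G44575), the protein that triggers the harmless loss of excess light energy as heat, had 53.1 FPKM. The genes of the major antenna, among the most abundant transcripts of green leaves, were low, and most of them were near the floor. LHCB1.3 had 7.94 FPKM, LHCB3 2.81 FPKM, LHCB1.5 1.28 FPKM and LHCB1.2 1.04 FPKM, while the remaining 5 had at most 0.306 FPKM in any group. LHCB1.4 was listed at 0 in 8 of 10 groups, LHCB2.2 in 6 and LHCB2.1 in 5.

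The subunits of photosystem I spread from 0.630 to 29.8 FPKM. PSAD1 (AT4G02770), which docks ferredoxin, had 29.8 FPKM, and PSAF (AT1G31330), on the plastocyanin side, 24 FPKM. PSAN had 13.4 FPKM. PSAG, PSAH2 and PSAH1 stood at 4.37, 3.70 and 3.24 FPKM, and PSAK was lowest at 0.630 FPKM. A mean of at least 1 FPKM over the 10 groups was found for 32 of the 40 members and for 16828 of all genes, and the shares of all genes given below refer to these 16828. The 8 members under 1 FPKM were LHCB1.1, LHCB1.4, LHCB1.5, the 3 LHCB2 genes, PSAK and PSBQ2. Counts are given for the 32 and for all 40.

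**Figure D1:**
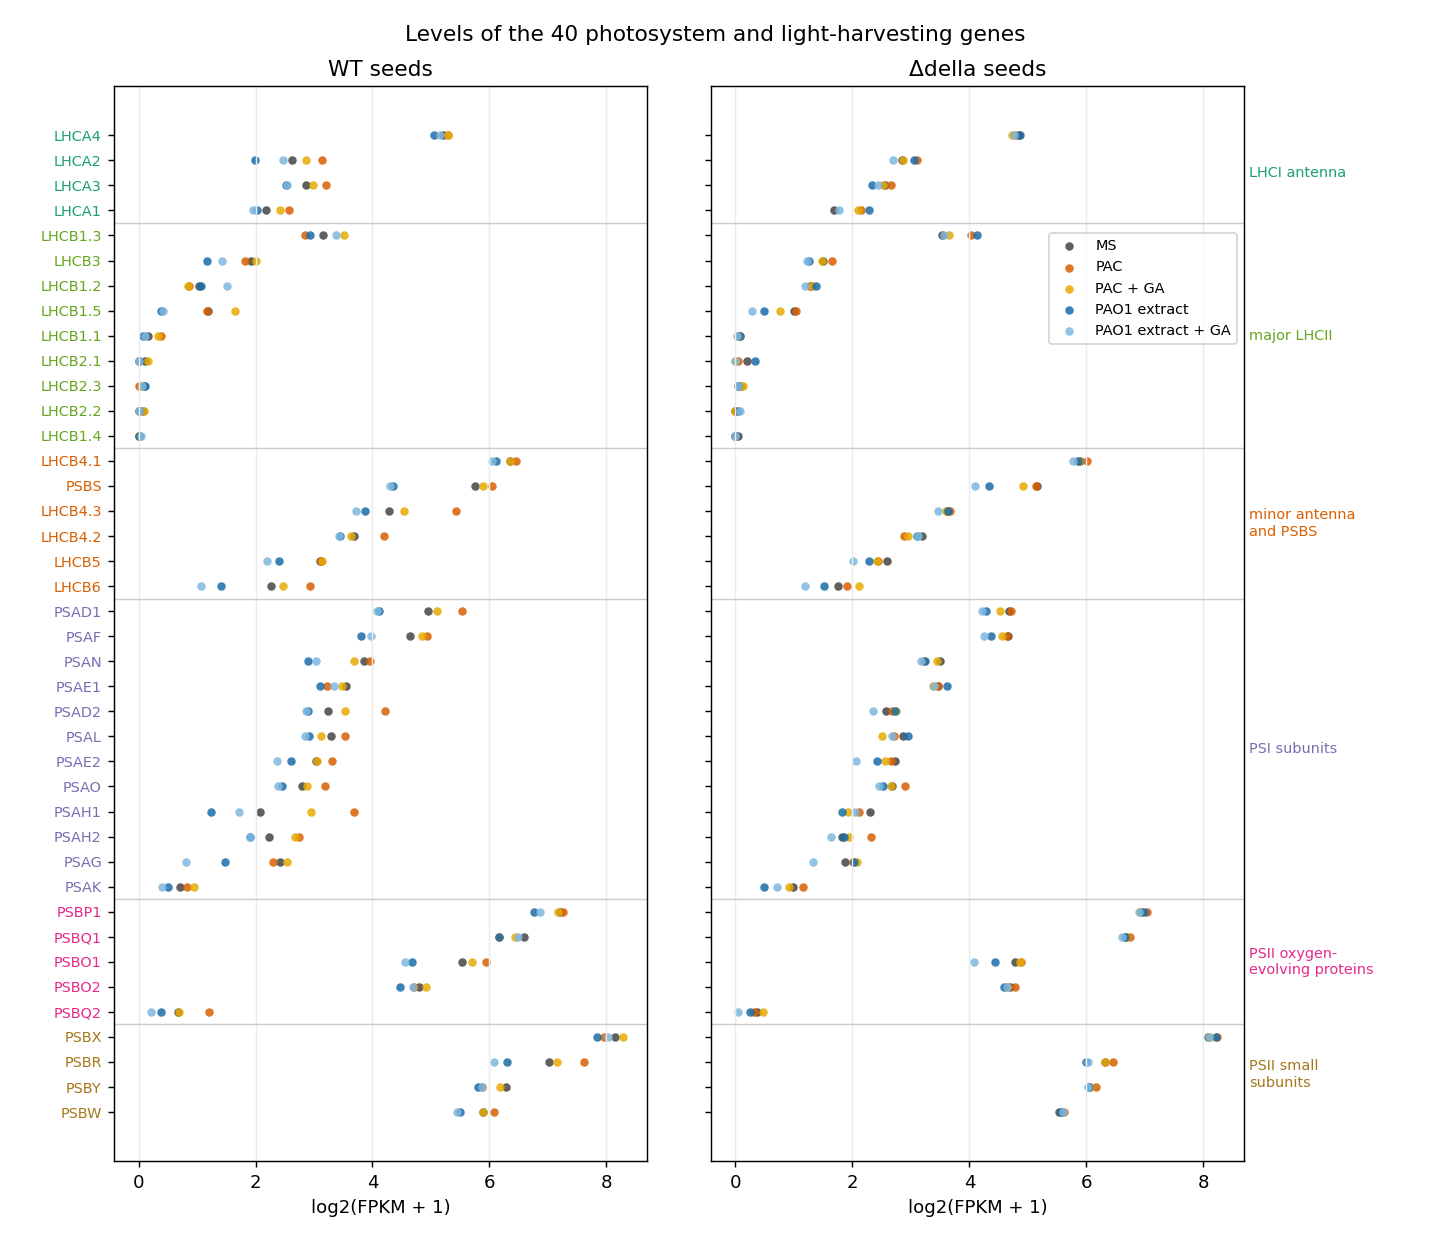
Level of each of the 40 members as log2(FPKM + 1), 1 row per gene, with WT seeds on the left and *Δdella* seeds on the right. Each point is the pooled value of 1 of the 5 media, and the rows are grouped by role. PSBX lies furthest to the right and most major LHCII genes lie near 0, and in WT seeds the 2 extract points lie left of MS in most rows.

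Pairs of copies differed in level. PSBQ1 had 95 FPKM on MS in WT seeds and PSBQ2 (AT4G05180) 0.591 FPKM, and their proteins are 79.8% identical. Both have 2 G-boxes in the windows shown above. Over the 10 groups PSBQ1 lay between 70.5 and 106 FPKM and PSBQ2 between 0.0280 and 1.29 FPKM, so that the pair never overlapped. PSAD1 was between 2.51 and 4.99 times as high as PSAD2, to which its protein is 95.1% identical. LHCB4.1 was between 5.01 and 9.98 times as high as LHCB4.2, with 89.5% identical proteins. The PSAH and PSAE pairs had no fixed order, with PSAH1 at 0.499 to 2.09 times PSAH2 and PSAE1 at 0.936 to 3 times PSAE2. The PSBQ pair was singled out after its values were seen.

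The comparison of *PAO1* extract with MS sets seeds on lyophilized bacterial culture medium beside seeds on plain medium. No extract without the germination repressive activity was among the groups. Differences due to this activity and to other compounds of the extract cannot be told apart. In WT seeds nearly all members were lower with extract. Folds and differences are on the log2(FPKM + 1) scale, which understates changes of low genes, unless given as a ratio of FPKM. Of the 32 members, 31 were lower by any amount, against 46.6% of all genes, and 12 were at least 1.5-fold lower, against 1.67%. On this scale PSBS was at least 2-fold lower and no other member passed 2-fold, where 1.33% of all genes passed in either direction. With a pseudocount of 0.1 in place of 1, 6 members were at least 2-fold lower, namely LHCB3, LHCB6, PSBS, PSAG, PSAH1 and PSAN. Of all 40 members, 37 were lower, 2 were higher and 1 was listed at 0 on both media. The median difference in log2(FPKM + 1) was -0.42 over the 32 members, a level 1.34-fold lower, and -0.38 over all 40, against 0.01 over all genes.

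PSBS showed the largest difference with extract. In WT seeds it had 53.1 FPKM on MS, 64.7 on PAC, 58.2 on PAC + GA, 19.5 on extract and 18.8 on extract + GA. In *Δdella* seeds it had 34.9 FPKM on MS, 34.2 on PAC, 29.4 on PAC + GA, 19.1 on extract and 16.1 on extract + GA. The 4 extract values, 16.1 to 19.5 FPKM, lay below all 6 values without extract, and this held in both genotypes. The FPKM was 2.72-fold lower with extract in WT seeds (-1.40 in log2) and 1.82-fold lower in *Δdella* seeds (-0.83).

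The oxygen-evolving proteins, which stabilise the manganese cluster of photosystem II, were lower with extract in WT seeds in all 4 genes with a mean of at least 1 FPKM, and the median with PSBQ2, which is under it, was -0.42. PSBO1 (AT5G66570) had 45.3 FPKM on MS and 24.6 on extract, a difference of -0.85, whereas PSBO2 (AT3G50820), with a protein 90.9% identical, had 26.7 and 21.2 FPKM, a difference of -0.32. The ratio of PSBO1 to PSBO2 was 1.70 on MS, 2.39 on PAC, 1.74 on PAC + GA, 1.17 on extract and 0.904 on extract + GA in WT seeds. In *Δdella* seeds it was 1.06 on MS, 1.09 on PAC, 1.18 on PAC + GA, 0.890 on extract and 0.659 on extract + GA. PSBO1 thus led the pair on MS, PAC and PAC + GA in both genotypes, and PSBO2 led in 3 of the 4 extract groups. The PSBO pair was singled out after its values were seen.

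PSBP1 had 147 FPKM on MS, 152 on PAC, 144 on PAC + GA, 107 on extract and 116 on extract + GA in WT seeds. In *Δdella* seeds its values were 122, 131, 120, 126 and 118 FPKM in the same order of media. The WT extract values lay below the other 3 of their genotype, and the *Δdella* values lay close together. PSBQ2 had 0.591, 1.29, 0.618, 0.311 and 0.164 FPKM in WT seeds and 0.291, 0.247, 0.393, 0.183 and 0.0280 FPKM in *Δdella* seeds, levels whose precision is unknown.

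The small subunits of photosystem II were lower with extract in 4 of 4 genes (median -0.42). PSBR, which helps to attach the oxygen-evolving proteins, had 129 FPKM on MS, 196 on PAC, 141 on PAC + GA, 77.7 on extract and 66.6 on extract + GA in WT seeds. In *Δdella* seeds it had 79.0, 87.3, 78.5, 62.6 and 64.2 FPKM in that order. The extract groups held the 2 lowest values of each genotype. PSBX had 281, 248, 311, 227 and 260 FPKM in WT seeds and 271, 299, 278, 296 and 273 FPKM in *Δdella* seeds, and its extract values lay within the range of the other media in the mutant.

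The 12 photosystem I subunits, PSAK under 1 FPKM among them, were all lower with extract in WT seeds (median -0.44), 5 of them at least 1.5-fold. PSAD1 had 29.8 FPKM on MS, 45.0 on PAC, 33.5 on PAC + GA, 16.3 on extract and 15.8 on extract + GA. In *Δdella* seeds it had 24.6, 25.3, 22.1, 18.5 and 17.5 FPKM. As for PSBS and PSBR, the extract values were the lowest of each genotype. PSAG (AT1G55670), which helps to bind the antenna of photosystem I, had 4.37, 3.89, 4.84, 1.80 and 0.760 FPKM in WT seeds and 2.66, 3.04, 3.23, 3.08 and 1.51 FPKM in *Δdella* seeds. Both extract values were the lowest in WT seeds, but in the mutant only that of extract + GA.

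Of the 6 minor antenna and PSBS genes, all were lower with extract in WT seeds (median -0.56), 3 of them at least 1.5-fold. LHCB6 had 3.79 FPKM on MS, 6.67 on PAC, 4.55 on PAC + GA, 1.65 on extract and 1.09 on extract + GA. In *Δdella* seeds it had 2.36, 2.74, 3.34, 1.87 and 1.28 FPKM, and its extract values were again the lowest in both genotypes. LHCB4.1, the most abundant of the group, had 80.3, 86.5, 80.9, 68.4 and 64.9 FPKM in WT seeds and 58.4, 63.9, 57.5, 57.2 and 53.6 FPKM in *Δdella* seeds.

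The 4 LHCI antenna genes were lower with extract in WT seeds (median -0.25). LHCA4 had 36.1, 38.3, 38.0, 32.2 and 34.6 FPKM in WT seeds and 27.9, 26.8, 25.6, 28.3 and 26.1 FPKM in *Δdella* seeds, and in the mutant the highest value was that of extract. LHCA2 (AT3G61470) had 5.19, 7.75, 6.30, 2.96 and 4.54 FPKM in WT seeds and 6.24, 7.57, 6.29, 7.35 and 5.47 FPKM in *Δdella* seeds. Of the 9 major LHCII genes, 6 were lower and 2 higher (median -0.08), most of them too low to be read. LHCB1.3, the only one above 5 FPKM, had 7.94, 6.17, 10.4, 6.61 and 9.38 FPKM in WT seeds and 10.6, 15.3, 11.6, 16.6 and 10.8 FPKM in *Δdella* seeds.

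The other members are given by their range over the 10 groups. Among the antenna genes, LHCA1 (AT3G54890) lay between 2.23 and 4.94 FPKM, LHCA3 (AT1G61520) between 4.06 and 8.23 FPKM, LHCB4.2 (AT3G08940) between 6.41 and 17.3 FPKM and LHCB5 (AT4G10340) between 3.03 and 7.82 FPKM. LHCB3 (AT5G54270) lay between 1.25 and 3.03 FPKM, LHCB1.2 between 0.796 and 1.86 FPKM and LHCB1.5 (AT2G34420) between 0.218 and 2.13 FPKM. The lowest value of LHCB3 was that of extract in WT seeds, and the lowest of LHCB5 that of extract + GA in *Δdella* seeds.

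In photosystem I, PSAF, which binds plastocyanin, lay between 13 and 29.6 FPKM, with the lowest value on extract in WT seeds. PSAN (AT5G64040), a subunit on the lumen side, lay between 6.47 and 14.6 FPKM, also with its lowest value there. PSAD2 (AT1G03130) lay between 4.13 and 17.6 FPKM, PSAE1 (AT4G28750) between 7.57 and 11.3 FPKM and PSAE2 (AT2G20260) between 3.19 and 8.85 FPKM. PSAH2 (AT1G52230) lay between 2.12 and 5.70 FPKM, PSAL (AT4G12800) between 4.70 and 10.5 FPKM, PSAO (AT1G08380) between 4.25 and 8.11 FPKM and PSAK (AT1G30380) between 0.323 and 1.24 FPKM. As a ratio of highest to lowest value, PSAE1 had the narrowest range of these photosystem I genes. In photosystem II, PSBW (AT2G30570) lay between 42.8 and 66.3 FPKM and PSBY between 55.2 and 76.5 FPKM.

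**Figure D2:**
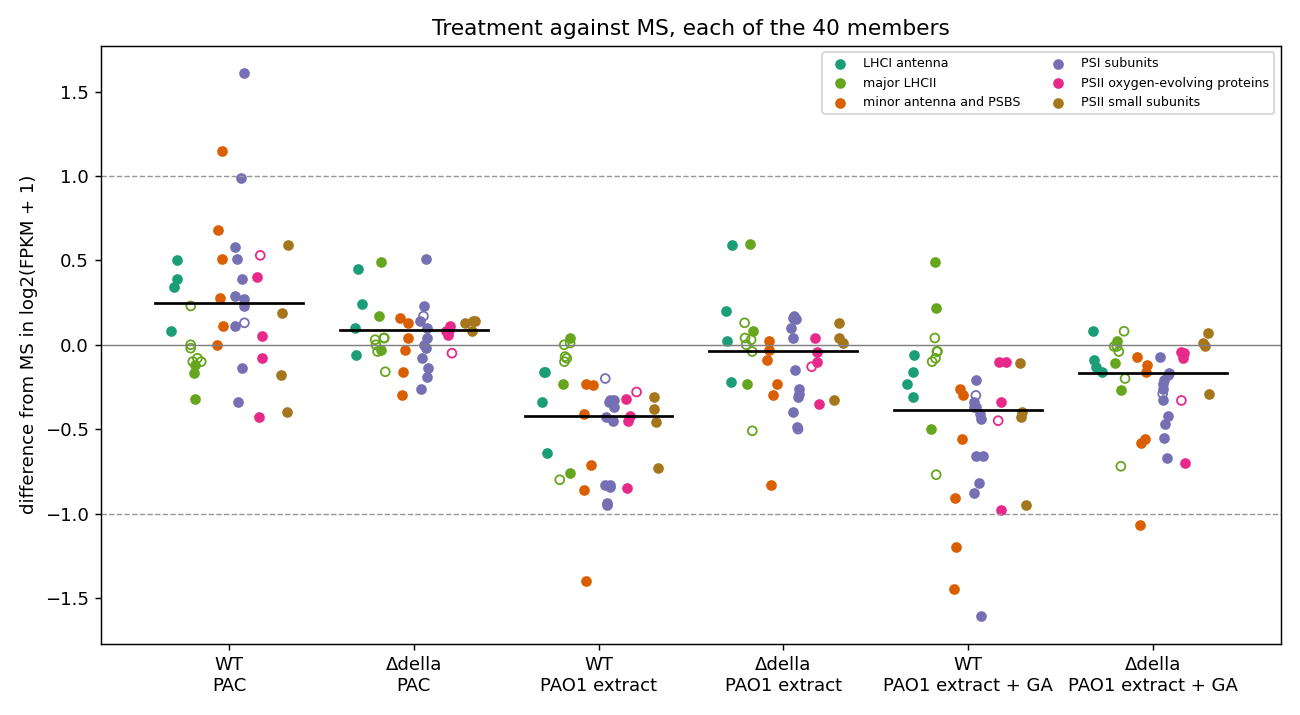
Difference of each of the 40 members from MS in log2(FPKM + 1), for PAC, *PAO1* extract and *PAO1* extract + GA in WT and *Δdella* seeds. Colours give the role, open points are the 8 members under a mean of 1 FPKM, black bars are medians over the other 32, and dashed lines mark 2-fold. Most WT extract points lie below 0, with a median of -0.42, whereas those of *Δdella* seeds spread around -0.03.

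With GA added to the extract, most members were again lower than on MS in WT seeds. Against MS, 30 of the 32 were lower, against 46.1% of all genes, and 10 were at least 1.5-fold lower, against 2.21%. PSBS, LHCB6 and PSAG were at least 2-fold lower and none was 2-fold higher, where 1.35% of all genes passed 2-fold. This count was 5 with a pseudocount of 0.1, 5 with FPKM scaled to equal totals and 1 with a mean of at least 5 FPKM. Of all 40, 37 were lower, and the medians were -0.38 over the 32 and -0.35 over the 40. LHCB1.2 and LHCB1.3 were the exceptions among the 32, with 1.04 against 1.86 FPKM and 7.94 against 9.38 FPKM on MS and extract + GA. By role, the medians against MS were -0.74 for the minor antenna and PSBS, -0.42 for photosystem I, -0.41 for the small subunits, -0.34 for the oxygen-evolving proteins and -0.20 for the LHCI antenna, with every gene of these roles lower, and -0.04 for the major LHCII genes, 6 of 9 lower. Set directly against extract alone, extract + GA had no member past 2-fold (1 with a pseudocount of 0.1), where 1.22% of all genes passed, and 17 of 32 members were lower, against 48.9% of all genes, with a median of -0.01.

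The comparisons of PAC, PAC + GA, extract and extract + GA with MS share the MS values. Extract + GA was therefore also set against PAC + GA, a choice made after seeing the data. In WT seeds 30 of the 32 members were lower with extract + GA than with PAC + GA, against 48.0% of all genes, with a median of -0.48. In *Δdella* seeds 25 of 32 were lower, against 49.2%, with a median of -0.16.

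In *Δdella* seeds the members were nearer to their MS level. With extract, 17 of 32 were lower, against 49.0% of all genes, and 1 was at least 1.5-fold lower, against 1.79%. This was PSBS, and LHCA1 and LHCB1.3 were at least 1.5-fold higher. No member passed 2-fold, where 1.22% of all genes did, and the median was -0.03, or -0.16 with FPKM scaled to equal totals. The median over all genes was not computed on the scaled values, and centred on the median of all genes the members stayed at -0.03. With extract + GA, 28 of 32 were lower, against 49.8%, and 3 were at least 1.5-fold lower, against 1.44%. PSBS alone was at least 2-fold lower, where 1.19% of all genes passed 2-fold, and the median was -0.17. By role, the 12 photosystem I subunits were all lower with extract + GA, with a median of -0.28, and the minor antenna and PSBS had a median of -0.36, whereas the small subunits had a median of 0.00. Between extract + GA and extract no member passed 2-fold, where 0.582% of all genes did.

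The response to extract of each member was also set against that of the other genotype, as the difference in *Δdella* seeds minus that in WT seeds. With extract this was above 0 for 32 of 32 members and 37 of all 40, against 50% of all genes, with a median of 0.44. On PAC it was above 0 for 12 of 32, against 50.4%, with a median of -0.16, or -0.29 with FPKM scaled to equal totals. With extract + GA it was above 0 for 27 of 32, against 47.9%, with a median of 0.21. For PSBS it was 0.56 with extract, where WT seeds had -1.40 and *Δdella* seeds -0.83 (subtracted before rounding), and 0.38 with extract + GA. These values rest on 4 pooled values per gene and were not tested. Between genotypes, as *Δdella* minus WT, the median was -0.35 on MS and 0.10 with extract. The lower MS level of the mutant thus enters the difference of the responses. Scaling the FPKM of each group to the same total multiplies all its genes by the same factor. The median of the response differences is then 0.32 with extract in place of 0.44. The median over all genes was not computed on that scale. Centred on the median of all genes, the medians of the members stayed at 0.44 with extract and -0.16 on PAC.

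**Figure D3:**
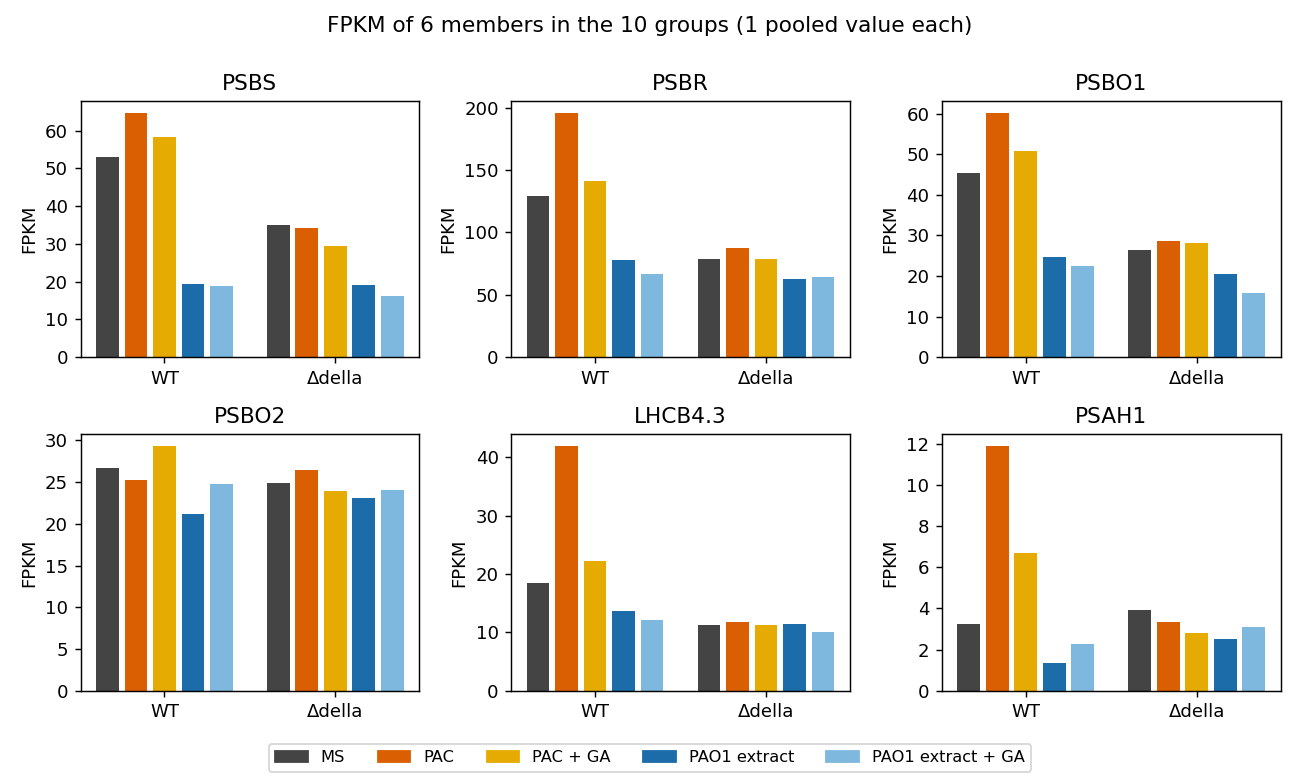
FPKM of PSBS, PSBR, PSBO1, PSBO2, LHCB4.3 and PSAH1 in the 10 groups, with 1 bar per pooled value and the vertical axis of each panel starting at 0. The extract bars of PSBS stand at 16.1 to 19.5 FPKM in both genotypes, PSBO2 lies between 21.2 and 29.3 FPKM, and LHCB4.3 and PSAH1 are highest on PAC in WT seeds.

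On PAC, which lowers GA, WT seeds showed the opposite direction for many members. Of the 32 members 23 were higher than on MS, against 49.7% of all genes, and 5 were at least 1.5-fold higher, against 7.65%. Of all 40, 26 were higher, 13 lower and 1 at 0 on both. LHCB4.3 and PSAH1 were at least 2-fold higher and none was 2-fold lower, where 7.02% of all genes passed 2-fold, so the 2-fold share of the members was near the background. This count was 1 with a mean of at least 5 FPKM or without near-identical copies. All 4 LHCI antenna genes and all 6 minor antenna and PSBS genes were higher, with medians of 0.37 and 0.39, and 10 of 12 photosystem I subunits, with a median of 0.28. The oxygen-evolving proteins and the small subunits had medians of 0.05 and 0.00. Of the 6 most abundant members on MS, PSBX, PSBQ1 and PSBY were lower on PAC, as they were on extract. They had 248, 70.5 and 57.8 FPKM on PAC, and PSBP1, PSBR and LHCB4.1 were higher than on MS. The median was 0.25 over the 32 and 0.16 over the 40, against 0.00 over all genes.

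LHCB4.3 had 18.4 FPKM on MS, 41.9 on PAC, 22.2 on PAC + GA, 13.6 on extract and 12.1 on extract + GA in WT seeds. In *Δdella* seeds all 5 values lay between 10.0 and 11.7 FPKM. Its copies LHCB4.1 and LHCB4.2 had 86.5 and 17.3 FPKM on PAC, against 80.3 and 11.9 FPKM on MS. PSAH1 (AT3G16140), a subunit of the side of photosystem I where LHCII can dock, had 3.24, 11.9, 6.69, 1.37 and 2.29 FPKM in WT seeds and 3.95, 3.35, 2.82, 2.53 and 3.12 FPKM in *Δdella* seeds. The PAC value of WT seeds was the highest of its 10 values.

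PSAH1 shares 693 exonic bases of the TAIR10.1 annotation with AT3G16130, on the opposite strand, which is listed at 0 in all 10 groups. In all, 16 of the 40 members overlap another annotated gene, LHCB6, PSBR, PSAG and LHCB1.3 among them. The partner of LHCB6, AT1G15810, had 50.7 to 64.7 FPKM over the 10 groups, that of PSBR, AT1G79050, 34.1 to 47.8 FPKM, and that of LHCB1.3, AT1G29940, 34.1 to 45 FPKM, all on the opposite strand. The library kit keeps the strand of the RNA, but the sources used here do not say whether strand was used in counting, and the part of these overlaps in the values was not tested.

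With GA added to PAC, no member passed 2-fold against MS in WT seeds (1 with a pseudocount of 0.1), where 0.773% of all genes did, and 24 of 32 were higher, against 51.4%, with a median of 0.12. Against PAC alone, none passed 2-fold, where 4.58% of all genes did, and 23 of 32 were lower, against 48.9%, with a median of -0.15. In *Δdella* seeds PAC left 22 of 32 members higher than MS, against 50.4%, with a median of 0.09 and none past 2-fold, where 0.612% of all genes passed. With PAC + GA 12 of 32 were higher, against 51.5%, with a median of -0.02 and none past 2-fold, where 0.523% passed. Between PAC + GA and PAC none passed 2-fold in the mutant, where 0.559% of all genes did.

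Between genotypes on the same medium, most members were lower in *Δdella* seeds on MS, PAC and PAC + GA. Roles differed in this. The minor antenna and PSBS genes also had medians below 0 with extract (-0.16) and extract + GA (-0.23). The major LHCII genes had medians of -0.04 on MS and 0.00 on PAC. On MS, 26 of 32 were lower, against 53.3% of all genes, 5 were at least 1.5-fold lower, against 4.62%, and none passed 2-fold, where 5.44% did. The median was -0.35 over the 32 and -0.28 over all 40. On PAC, 25 of 32 were lower, against 51.5%, with a median of -0.44. LHCB4.2, LHCB4.3, LHCB6, PSAD2, PSAH1, PSBO1 and PSBR were at least 2-fold lower and LHCB1.3 2-fold higher, where 15% of all genes passed 2-fold. Without near-identical copies, 4 passed in place of 8. On PAC + GA, 29 of 32 were lower, against 53.6%, with a median of -0.46, and PSAH1 passed 2-fold, where 6.87% did. It was not past 2-fold with centring on the median of all genes, and it is left out by a mean of at least 5 FPKM and with the near-identical copies.

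With extract, 12 of 32 members were lower in *Δdella* seeds, against 53.3% of all genes, and the median was 0.10. LHCA2 and LHCB1.3 were at least 2-fold higher, where 6.0% of all genes passed 2-fold, and 1 of them was left without near-identical copies. LHCB1.3 had 16.6 FPKM in *Δdella* and 6.61 in WT seeds, and LHCA2 7.35 and 2.96 FPKM, both among the 8 members with repeated sequence. With extract + GA, 17 of 32 were lower, against 54.7%, with a median of -0.05 and none past 2-fold, where 3.35% of all genes passed. The summed level of all 40 members was 1219 FPKM on MS, 870 on extract and 924 on extract + GA in WT seeds, and 1015, 994 and 926 FPKM in *Δdella* seeds. Of these media, the sums of the genotypes lay closest together with extract + GA. On MS the sum was higher in WT seeds, and on extract it was higher in *Δdella* seeds.

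Other genes of photosynthesis were examined as lists. With extract in WT seeds, 46.6% of all genes were lower by any amount and 1.33% passed 2-fold in either direction. Of 25 genes of chlorophyll synthesis, 22 were lower with extract in WT seeds, with a median of -0.25, and 1 passed 2-fold. This was CHLH (AT5G13630), a subunit of the magnesium chelatase that starts the chlorophyll branch. It had 15.9 FPKM on MS, 21.3 on PAC, 15.2 on PAC + GA, 5.56 on extract and 4.01 on extract + GA in WT seeds. In *Δdella* seeds it had 8.93, 7.13, 7.56, 2.96 and 2.47 FPKM, so that, as for PSBS, the extract values were the lowest of either genotype. PORB (AT4G27440), a light-dependent reductase of protochlorophyllide named after its values were seen, had 71.2, 49.6, 66.6, 37.5 and 30.2 FPKM in WT seeds and 63.1, 56.9, 52.2, 30.8 and 29.5 FPKM in *Δdella* seeds. HEMC (AT5G08280), the most abundant of the list, had 247 FPKM on MS and 224 on extract in WT seeds.

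Of 14 nuclear genes of electron transport and ATP synthase, 12 were lower with extract in WT seeds (median -0.25) and none passed 2-fold. FD1 (AT1G10960), a ferredoxin and the most abundant of them, had 609 FPKM on MS and 477 on extract. Of 8 assembly factors, 7 were lower (median -0.13), none by 2-fold, and the most abundant, Y3IP1 (AT5G44650), had 126 and 125 FPKM. Of 7 further photosystem and antenna genes, 4 were lower (median -0.08), none by 2-fold, and PSBTN (AT3G21055) had 175 and 144 FPKM.

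Of 10 regulators of photosynthesis genes, 8 were lower by any amount with extract (median -0.09) and none passed 2-fold. PIF3 counted as lower with 19.9 FPKM on MS and 19.8 on extract in WT seeds. The list was not split into activators and repressors, so no joint direction is read from it. The largest difference went the other way, in PIF4 (AT2G43010), named after its values were seen. It had 1.85 FPKM on MS and 3.84 on extract in WT seeds, a difference of 0.76. GUN1 (AT2G31400), a plastid signalling protein and the most abundant of them, had 166 FPKM on MS and 153 on extract. All 6 plastid sigma factors, which direct the plastid RNA polymerase, were lower (median -0.22), none by 2-fold, and SIG6 (AT2G36990) had 56.5 and 49.5 FPKM. The 133 chloroplast genes of the table, with the 6 core subunits of the photosystems among them, were listed at 0 in every group, and nothing is read from this.

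Seed markers moved with the groups and are given beside the members. The 10 genes of storage proteins, oleosins and late embryogenesis proteins were all at least 2-fold higher on PAC in WT seeds, with a median of 2.02, and all 10 were higher with extract, 6 of them at least 2-fold, with a median of 1.44. With extract + GA, 8 of 10 were lower than on MS in WT seeds, with a median of -0.84. In *Δdella* seeds 7 of 10 were higher than on MS with extract, 4 of them at least 2-fold, with a median of 0.58, and 7 of 10 were higher with extract + GA, with a median of 0.51. On PAC the median in *Δdella* seeds was 0.13, with none past 2-fold. CRA1 (AT5G44120), a cruciferin and the most abundant, had 367 FPKM on MS, 5245 on PAC, 927 on PAC + GA, 1544 on extract and 209 on extract + GA in WT seeds, and between 20.1 and 56.0 FPKM in *Δdella* seeds. The summed level of the 10 was 939 FPKM on MS, 9334 on PAC, 1576 on PAC + GA, 3138 on extract and 520 on extract + GA in WT seeds, and it was 117 to 259 FPKM in *Δdella* seeds.

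Between extract and extract + GA in WT seeds, the 10 seed markers were at least 2-fold lower with GA (median -1.81), whereas the members had a median of -0.01. On PAC and on extract the seed markers of WT seeds were higher in both cases, whereas the members had medians of 0.25 and -0.42. Of 3 endosperm markers, EPR1 (AT2G27380) had 932 FPKM on MS, 1201 on PAC and 1226 on extract, EXPA2 (AT5G05290) had 1579, 338 and 1907 FPKM, and ZOU was listed at 0 in these groups. Their sum was 1539 to 3134 FPKM in WT and 1753 to 2107 FPKM in *Δdella* seeds. EPR1 and EXPA2 went opposite ways on PAC in WT seeds, so the sum is not read as an amount of endosperm. The part of the stage of the seed or of its tissues in the members' values was not tested, and in whole seeds fewer cells of a type and less RNA per cell cannot be told apart.

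**Figure D4:**
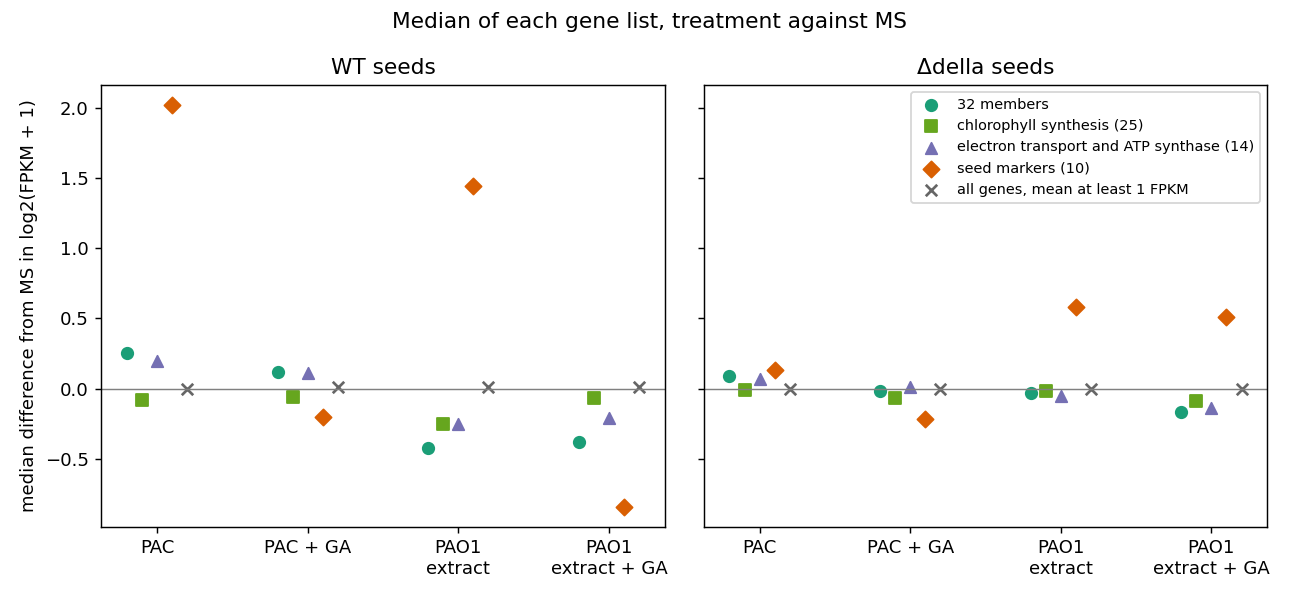
Median difference from MS in log2(FPKM + 1) of the 32 members, the 25 chlorophyll synthesis genes, the 14 electron transport and ATP synthase genes, the 10 seed markers and all 16828 genes, for WT seeds on the left and *Δdella* seeds on the right. In WT seeds the seed markers lie at 2.02 on PAC, 1.44 on extract and -0.84 on extract + GA, and the members at 0.25, -0.42 and -0.38.

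The 5 mutated DELLA genes checked the labels. RGL2 (AT3G03450) had 147 to 178 FPKM in the 5 WT groups and 4.22 to 8.65 FPKM in the 5 *Δdella* groups, and all 5 genes were at least 2-fold lower in *Δdella* than in WT seeds on MS. The sum of FPKM over all genes lay between 882351 on PAC in WT seeds and 988764 on extract in *Δdella* seeds. The number of reads per library is unknown from these values.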

How the data were processed

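RNA of WT and *Δdella* seeds was measured in 20 libraries, 2 for each of 10 groups, and samples were assigned to groups by their labels. The authors used TopHat (genome TAIR10) and then Cuffdiff, in Galaxy, and pooled replicates. The sources used here do not give versions, annotation or normalization. The deposited table holds 1 FPKM value per gene and group, repeated identically over 45 pairs of groups, and the authors' fold changes, test statistics, p-values and q-values, which were not used.

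For 17 comparisons, differences in log2(FPKM + 1) were computed, with 2-fold as threshold and the genes with a mean of at least 1 FPKM as background. The members and lists were chosen with earlier results of these data known. Thresholds of 1.5-fold and of any amount, and PAC + GA as a control, were added after seeing the data. The calls were tested on simulated data. FPKM give no depth, so no counting error can be stated.

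Gene models and sequences come from RefSeq on TAIR10.1. All 26687 genes found in both overlapped the deposited loci on the same chromosome. The mRNA with the lowest accession number was used, and identity is a share of the shorter protein in a global alignment. Windows of 50 bases were matched without mismatch by bwa 0.7.19. Python 3.11.15, numpy 2.4.6, pandas 2.3.3, Biopython 1.88 and matplotlib 3.10.9 were used.

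Members with FPKM in all groups are the highest and the most PAC-changed of each role, those past 2-fold with extract, PSBS and every member of a called set of 5 or fewer. From other lists these are the most abundant gene of each. Those past 2-fold on PAC or extract in WT seeds are given too, except GAI and the seed markers other than CRA1. EPR1, PORB and PIF4 are given besides. Alternatives were a pseudocount of 0.1, no filter, a mean of at least 5 FPKM, equal totals, centring on the median and leaving out copies of at least 90% protein identity.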

Additional observations from a re-analysis of the deposited data

How the results depend on the processing

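Medians of the members and counts past 2-fold were recomputed under 6 alternatives. A median was taken as moved by 0.1 or more, and a count by more than 1.5 times. No median changed sign beyond this tolerance. With a pseudocount of 0.1, 6 members passed 2-fold with extract against MS in WT seeds in place of 1 (LHCB3, LHCB6, PSBS, PSAG, PSAH1 and PSAN), 5 with extract + GA in place of 3, 1 with PAC + GA against MS in place of 0, and 1 with extract + GA against extract in place of 0. With a mean of at least 5 FPKM, 25 members remained, and 1 passed with PAC and 1 with extract + GA against MS in WT seeds, and 0 between genotypes on PAC + GA. With FPKM scaled to equal totals, 5 passed with extract + GA in WT seeds, and the medians were -0.16 for extract in *Δdella* seeds, -0.56 between genotypes on PAC, and -0.29 and 0.32 for the difference of the responses to PAC and to extract between genotypes. The medians over all genes were not computed on the scaled values. Centring on the median of all genes left 0 between genotypes on PAC + GA in place of 1, and moved no median. With all 40 members the median between genotypes on PAC + GA was -0.32 in place of -0.46. Without near-identical copies, 24 members remained, and 1 passed with PAC in WT seeds, 4 between genotypes on PAC, 0 on PAC + GA and 1 with extract. The cause was not tested, beyond the smaller number of members in the last case and with the higher minimum. With PAC + GA as the control for extract + GA the medians were -0.48 in WT and -0.16 in *Δdella* seeds.

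No paired analysis was possible because the deposited table holds 1 pooled value per group, so leaving out a replicate was not run either. Depth is unknown from FPKM, which limits most what is read from genes under 1 FPKM.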
